A study of Mus musculus with 12 samples.

Results

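The genes described are Nipal1, Cib3 and Acpp, which stood among the strongest risers when livers carrying a human ApoF virus were compared with livers carrying a GFP virus. They were chosen for that difference, so their group levels are given as a description with no test. Each is read by 1 probe set with a single gene symbol, and probe sets with several symbols were not used for them. They are 3 genes of 22180 measured under a single symbol.

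Liver RNA came from male C57BL6/J mice aged 8 to 10 weeks, with 1 array per sample. Of the 12 samples, 6 received the Ad5 adenovirus Ad-GFP (replicates 1 to 6) and 6 received Ad-hApoF, which carries human apolipoprotein F (replicates 7 to 12). All animals of both groups therefore carried a virus, were killed on day 4 at 3 pm and had been without food for 6 h; uninjected livers were not analysed here. The labels do not say for each array that it came from its own animal, so any p-value measures only the spread between these samples.

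The proteins of these genes have different jobs. Nipal1 encodes a membrane protein of the NIPA family, whose members carry magnesium ions across membranes. Cib3 encodes a small EF-hand protein of the calcium and integrin binding family, and is known from mouse inner ear, where it binds the TMC channel proteins that turn motion into current. Acpp, now also called Acp3, encodes prostatic acid phosphatase, which exists as a secreted and as a membrane form; the membrane form in mouse sensory neurons splits AMP to give adenosine.

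The bases before the start of Nipal1 and of Acpp are shown because the genes were higher together and their upstream sequences can be set side by side. Both are the 250 bases before the RefSeq start in the build GRCm38.p6, printed 5′ to 3′ along the gene. Nipal1 is at chr5:72647546-72647795 on the plus strand and Acpp at chr9:104337723-104337972 on the minus strand. Capitals mark matches to any of 6 short motifs searched on both strands.
Nipal1: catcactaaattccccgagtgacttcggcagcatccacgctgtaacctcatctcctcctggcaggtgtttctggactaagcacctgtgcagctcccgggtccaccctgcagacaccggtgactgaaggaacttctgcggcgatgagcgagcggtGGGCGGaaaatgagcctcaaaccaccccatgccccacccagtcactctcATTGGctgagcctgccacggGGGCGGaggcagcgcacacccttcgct
Acpp: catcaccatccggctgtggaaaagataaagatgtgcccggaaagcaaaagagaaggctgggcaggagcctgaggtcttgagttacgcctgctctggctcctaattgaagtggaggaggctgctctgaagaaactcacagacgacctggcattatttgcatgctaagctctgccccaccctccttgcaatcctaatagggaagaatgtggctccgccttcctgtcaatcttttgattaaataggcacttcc
The motifs were the E-box CACGTG, the AP-1 motif TGANTCA, the nuclear receptor half-site AGGTCA, the GC box GGGCGG, the CCAAT box CCAAT and the TATA box TATAAA. Nipal1 held 2 GC boxes, beginning 96 and 27 bases before the start, and 1 CCAAT box on the opposite strand, beginning 47 bases before it. None of the 6 occurred in the Acpp window. Among 32851 RefSeq windows of the same length, 32.7% held a GC box, 33.8% a CCAAT box, 14.0% the half-site, 12.4% a TATA box, 6.75% the AP-1 motif and 6.02% the E-box. GC content was 61.2% for Nipal1 and 50.4% for Acpp, against a median of 52.4% over all windows. The Cib3 window overlaps the annotated span of its own gene and is not shown. These matches are letters in a window and were tied to no measurement.

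Nipal1 was higher in hApoF livers by 1.42 on the log2 scale (SE 0.29), or 2.68-fold, the fourth largest rise of all genes. On the log2 scale of the deposited values, its level was 6.89, 6.78, 7.96, 6.05, 7.01 and 6.90 in GFP livers 1 to 6. It was 8.58, 7.68, 8.68, 8.29, 7.67 and 9.24 in hApoF livers 7 to 12. GFP 3 lay above hApoF 8 and hApoF 11, so the groups overlapped, while the remaining 5 GFP livers lay below every hApoF liver. The means were 6.93 ± 0.61 (SD, n = 6) and 8.36 ± 0.61 (n = 6). Within a group Nipal1 spanned 1.90 log2 units among GFP livers and 1.58 among hApoF livers, each more than the difference between the group means.

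Cib3 was higher by 1.07 (SE 0.25), or 2.10-fold, and its level was uneven among the hApoF livers. It was 6.00, 5.57, 5.78, 5.44, 5.90 and 5.44 in GFP livers 1 to 6. It was 8.04, 6.62, 6.63, 6.30, 6.00 and 6.95 in hApoF livers 7 to 12. The groups met at 6.00, in GFP 1 and hApoF 11, and hApoF 7 stood 1.09 above the next hApoF liver. The SD was 0.24 around a mean of 5.69 in GFP livers (n = 6) and 0.71 around 6.76 in hApoF livers (n = 6). Without hApoF 7 the difference was 0.81.

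Acpp was higher by 1.04 (SE 0.18), or 2.06-fold, and it was the member whose groups were fully apart. Its level was 6.74, 6.37, 5.79, 6.32, 6.51 and 5.97 in GFP livers 1 to 6. It was 8.07, 7.18, 7.14, 7.47, 7.16 and 6.94 in hApoF livers 7 to 12. The lowest hApoF liver exceeded the highest GFP liver, and hApoF 7 was again the highest. The means were 6.29 ± 0.35 (SD, n = 6) and 7.33 ± 0.40 (n = 6), and without hApoF 7 the difference was 0.89. The count of members with no overlap and a higher hApoF group was 1 of 3, where 1.49% of all genes had that pattern, and nothing is read from this because the members were chosen on the same contrast. A rise of 1 or more on the log2 scale was seen in 15 genes, 0.0676% of all, and in 3 of 3 members. By size of rise Cib3 was number 12 and Acpp number 14, and the median difference of all genes was 0.03.

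**Figure D1:**
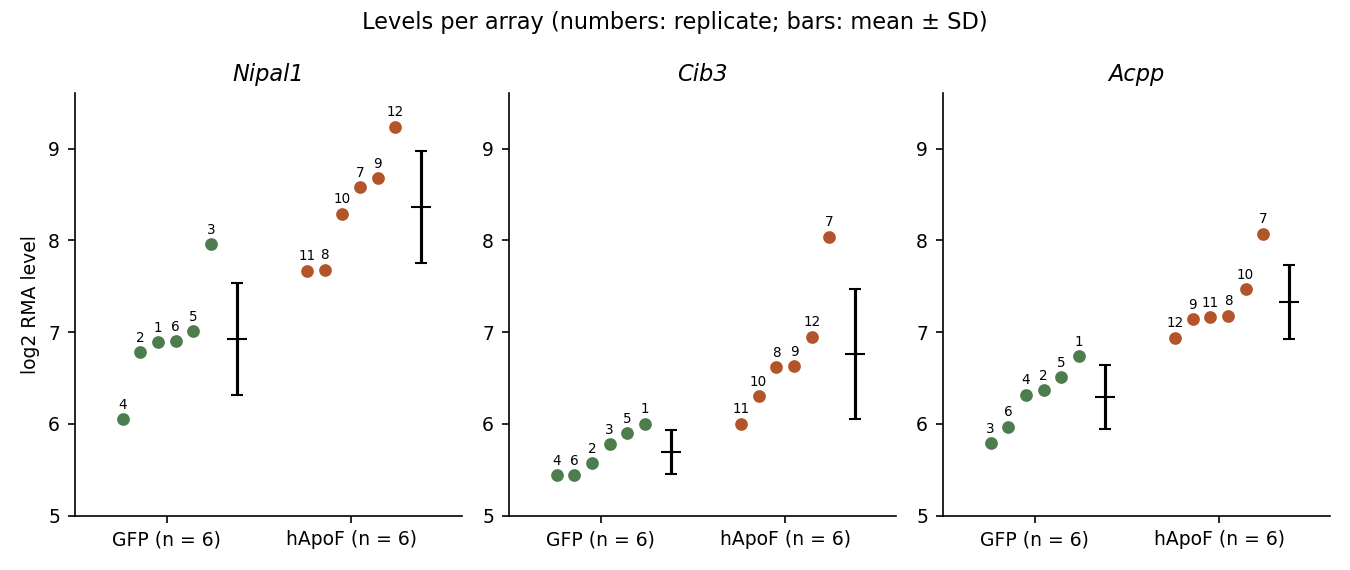
Log2 RMA level (vertical axis) of Nipal1, Cib3 and Acpp in each of 6 GFP and 6 hApoF livers, with points numbered by replicate and sorted by level, and bars giving the mean ± SD. Acpp separates the groups, GFP 3 of Nipal1 reaches 7.96 among the hApoF values, and hApoF 7 is the highest liver for Cib3 (8.04) and Acpp (8.07).

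The genes ranked the livers alike only in part. Among hApoF livers, hApoF 12 was the highest for Nipal1 (9.24), the second highest for Cib3 (6.95) and the lowest for Acpp (6.94). Liver hApoF 11 was the lowest for Nipal1 and Cib3 and number 4 of 6 for Acpp. Among GFP livers, GFP 3 was the highest for Nipal1 and the lowest for Acpp, and GFP 1 was the highest for Cib3 and Acpp.

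Within-group deviations were not used to choose the genes, so their correlations could be tested, separately in each virus group because the groups form separate clusters. None of the 6 relations (3 pairs in 2 groups) passed after Benjamini-Hochberg adjustment in exact two-sided permutation tests over the 720 pairings of 6 arrays, and none had an unadjusted p under 0.05. Nipal1 and Cib3 had r = 0.47 in GFP livers (exact permutation p = 0.41, adjusted 0.49; Spearman's rho 0.31, p = 0.56) and r = 0.49 in hApoF livers (exact permutation p = 0.32, adjusted 0.49; rho 0.77, p = 0.10). This pair stayed positive when the 2 arrays farthest from the median of Nipal1 were left out, with r = 0.49 and 0.38. Cib3 and Acpp had r = 0.49 in GFP livers (exact permutation p = 0.33, adjusted 0.49; rho 0.66, p = 0.17) and r = 0.69 in hApoF livers (exact permutation p = 0.28, adjusted 0.49; rho 0.03, p = 1.0). The hApoF value of this pair rested on hApoF 7, without which r was -0.59, and without hApoF 7 and hApoF 11, the arrays farthest from the median of Cib3, r was -0.99 over 4 arrays; in GFP livers r was -0.10 without GFP 1 and GFP 6. Nipal1 and Acpp had r = -0.51 in GFP livers (exact permutation p = 0.32, adjusted 0.49; rho -0.31, p = 0.56) and r = -0.03 in hApoF livers (exact permutation p = 0.96, adjusted 0.96; rho -0.43, p = 0.42). Without the 2 arrays farthest from the median of Nipal1, r of this pair was 0.16 and 0.39. With 6 arrays a group, a p that misses the threshold does not show that 2 genes vary independently.

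**Figure D2:**
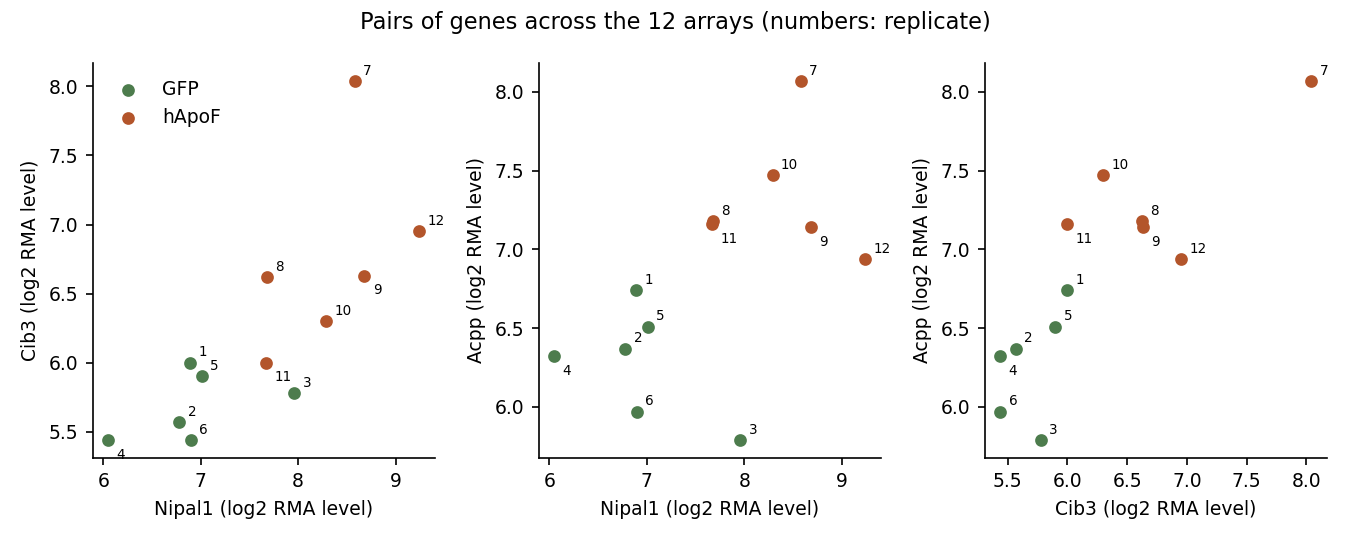
Each pair of genes plotted against each other, both axes in log2 RMA level, with 1 point per liver numbered by replicate and coloured by virus. Both groups are scattered within themselves, and in the panel of Cib3 and Acpp the liver hApoF 7 lies alone at 8.04 and 8.07.

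Relatives of Nipal1 and other magnesium transport genes mostly stayed near no difference. Over all genes, the limma test with Benjamini-Hochberg adjustment called 6.91% (2.11% higher and 4.80% lower in hApoF livers). Of 19 magnesium transport genes other than Nipal1, 1 was higher, 2 were lower and 16 did not pass; 2 higher and 3 lower had an unadjusted p under 0.05. The median log2 difference of these 19 was -0.02.

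The 5 other genes of the NIPA family did not pass. Their log2 differences were 0.21 for Nipal2 (SE 0.09, limma adjusted p = 0.19), 0.10 for Nipa2 (SE 0.07), 0.04 for Nipal4 (SE 0.10), -0.06 for Nipa1 (SE 0.08) and -0.09 for Nipal3 (SE 0.06). Trpm6 and Trpm7, channel kinases that admit magnesium, had differences of 0.10 (SE 0.09) and -0.15 (SE 0.11) and did not pass either. Mean levels in GFP and hApoF livers were 3.56 and 3.77 for Nipal2, and 4.10 and 4.20 for Trpm6. Both genes lay below the array medians of 4.93 to 5.03, so a change in them may go unseen.

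Magt1, a membrane protein linked to magnesium uptake and to protein N-glycosylation, rose by 0.42 (SE 0.07, limma adjusted p = 0.0019). Its level was 8.86, 8.77, 8.73, 8.87, 8.77 and 8.70 in GFP livers and 9.12, 9.10, 9.28, 9.36, 9.31 and 9.04 in hApoF livers, with no overlap. Mrs2, the magnesium channel of the inner mitochondrial membrane, fell by 0.39 (SE 0.07, limma adjusted p = 0.0034). Its level was 7.35, 7.54, 7.58, 7.31, 7.44 and 7.50 in GFP livers and 7.03, 6.97, 6.94, 7.06, 7.20 and 7.16 in hApoF livers, again with no overlap (3.49% of all genes were lower without overlap). Slc41a3, a transporter of the magnesium carrier family SLC41, fell by 0.41 (SE 0.09, limma adjusted p = 0.0095). Its GFP levels ran from 6.46 to 6.71 and its hApoF levels from 5.94 to 6.37, so these groups were apart as well.

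In the list of CIB genes, related EF-hand proteins and TMC partners, 1 gene of 16 other than Cib3 passed. This count is near the 6.91% called over all genes, and the gene that passed was lower. That gene was Tmie, a subunit of the mechanotransduction complex of inner ear hair cells, which fell by 0.48 (SE 0.10, limma adjusted p = 0.0077). Its level was 7.08, 7.09, 7.08, 7.10 and 7.15 in GFP livers 1 to 5, 7.0 in GFP 6, and 6.47, 6.67, 6.99, 6.64, 6.61 and 6.25 in hApoF livers. The highest hApoF liver, hApoF 9, lay just below the lowest GFP liver. No gene of this list was called higher, while 3 higher genes and 1 lower gene had an unadjusted p under 0.05 in limma.

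The paralogs Cib1 and Cib4 did not pass. Cib1, which binds the platelet integrin, had a log2 difference of 0.00 (SE 0.07) and Cib4 of -0.06 (SE 0.10). The 8 TMC genes did not pass and lay between -0.04 (Tmc8) and 0.18 (Tmc2). Mean GFP levels were 3.66 for Tmc1, 4.51 for Tmc2, 4.18 for Tmc3, 4.41 for Tmc5 and 4.18 for Cib4. These genes lay below the array medians of 4.93 to 5.03 in both groups, so a change in them may go unseen. The median difference of the 16 genes was 0.00, and without GFP 4 the count of called genes was 2. Cib2 was not analysed here.

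In the list of phosphatases and adenosine genes, 1 gene of 16 other than Acpp passed, and it was lower. This count too is near the 6.91% called over all genes. Pxylp1, which removes a phosphate from xylose in proteoglycan linkers, fell by 0.35 (SE 0.09, limma adjusted p = 0.033). Its level was 6.43, 6.67, 6.63, 6.33, 6.15 and 6.41 in GFP livers and 6.14, 6.08, 5.89, 6.17, 6.19 and 6.08 in hApoF livers, so GFP 5 overlapped with the hApoF group. Of the 12 omissions of a single array, 8 ended the call of Pxylp1, with a limma adjusted p of at most 0.079: GFP 1, 2, 3 and 6 and hApoF 7, 8, 9 and 12. No gene of the list was called higher, and unadjusted p under 0.05 was found for 0 higher and 5 lower genes in limma.

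Of the other genes named acid phosphatase, log2 differences were -0.22 for the lysosomal Acp2 (SE 0.07, limma adjusted p = 0.062, no overlap), -0.08 for Acp6 (SE 0.07) and 0.15 for Acp4 (SE 0.08), which like Acpp and Pxylp1 belong to the histidine acid phosphatases. Minpp1, an inositol phosphate phosphatase of that family, had a difference of 0.03 (SE 0.07). Acp1 (0.02, SE 0.07) and Acp5 (-0.07, SE 0.09) carry the name but belong to other protein families. None of these 6 genes passed, so Pxylp1 was the called gene of that family. Acp4 averaged 4.57 in GFP and 4.72 in hApoF livers, below the array medians of 4.93 to 5.03, where a change may go unseen. Nt5e, the membrane 5′-nucleotidase that also makes adenosine from AMP, had a difference of 0.10 (SE 0.14). Alpl (-0.32, SE 0.09), Entpd5 (-0.31, SE 0.10) and Enpp3 (-0.21, SE 0.08) were among the 5 lower genes at an unadjusted p under 0.05. Their limma adjusted p was 0.053, 0.088 and 0.12, so they did not pass, and 0 genes of the list were higher at that level. The median of the 16 genes was 0.00. This list had 3 called genes without GFP 4 and 3 after arrays were centred on their medians. It had 0 after renewed quantile normalization, and 0 when GFP 2, 3 or 6 or hApoF 7, 8 or 12 was omitted.

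**Figure D3:**
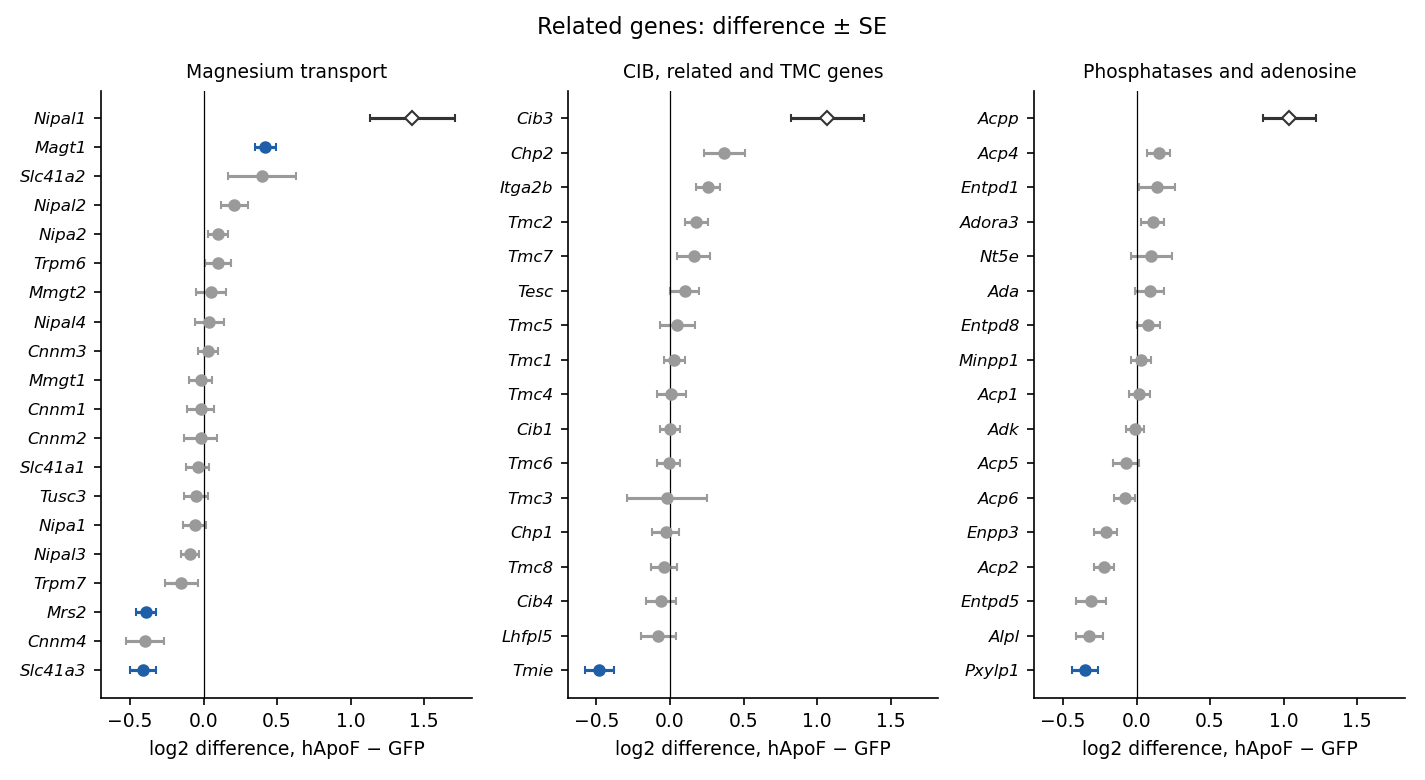
Log2 difference between hApoF and GFP livers (horizontal axis) with its SE for the genes of each list. Blue points passed the limma test, grey points did not, and the open diamonds are Nipal1 (1.42), Cib3 (1.07) and Acpp (1.04), which were chosen on this difference and carry no test; the other genes lie between -0.48 and 0.42.

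The measured genes nearest to the members on their chromosomes did not pass the test. They were picked by position alone, as the nearest measured protein-coding gene on either side in the GRCm38.p6 gene order, after the values were known. Beside Nipal1, Cnga1 had a log2 difference of -0.01 (SE 0.10) and Txk of 0.12 (SE 0.08). Beside Cib3, Rab8a had -0.05 (SE 0.07) and Fam32a -0.26 (SE 0.13, limma adjusted p = 0.26). On the side of Rab8a, 1 protein-coding gene was passed over. Beside Acpp, Dnajc13 had -0.19 (SE 0.07, limma adjusted p = 0.12) and Cpne4 0.13 (SE 0.12). Mean levels in GFP and hApoF livers were 3.72 and 3.71 for Cnga1, 4.26 and 4.38 for Txk, and 3.53 and 3.66 for Cpne4. These lie below the array medians of 4.93 to 5.03, so a change in these genes may go unseen. In limma 0 of the 6 passed and 1, Dnajc13, had an unadjusted p under 0.05, in the direction opposite to Acpp.

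Marker genes of liver cell types were set beside these values, since in whole liver fewer cells of a type and less RNA per cell cannot be told apart. The hepatocyte list averaged 12.58 to 12.69 in GFP and 12.70 to 12.76 in hApoF livers, with 0 of 10 genes called and 4 higher at an unadjusted p under 0.05 in limma, and Alb was at 13.40 to 13.55. For the counts that follow, limma called 2.11% of all genes higher and 4.80% lower. The macrophage and Kupffer list had 3 of 12 genes higher and 0 lower and averaged 6.63 to 7.55 against 7.11 to 7.97. The endothelial list had 4 of 12 higher and 0 lower (8.08 to 8.52 against 8.40 to 8.69), the stellate list 3 of 10 higher (6.99 to 7.34 against 7.28 to 7.55) and the neutrophil list 2 of 7 higher (4.23 to 4.56 against 4.40 to 4.93). At an unadjusted p under 0.05 in limma, 4 macrophage and Kupffer, 9 endothelial, 6 stellate and 3 neutrophil genes were higher and 0 were lower. None of 5 bile duct and 7 lymphocyte genes was called in limma, with 1 and 2 higher and 1 and 1 lower at an unadjusted p under 0.05. The part of these cell types in the levels of Nipal1, Cib3 and Acpp was not tested between the groups.

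A further comparison used 4 lists: cholesterol synthesis, cell cycle, and the macrophage and Kupffer and endothelial markers. In hApoF livers 10 of 17 cholesterol synthesis genes were higher, against 2.11% of all genes. Of the cell cycle genes 23 of 23 were lower, against 4.80% of all genes. Within each virus group the members were set against the mean level of each list. Of these 24 relations 0 passed after adjustment in exact permutation tests, and 1 had an unadjusted p under 0.05; with 6 arrays a lone relation could not have passed, its adjusted p being at least 0.067. Their r lay between -0.77 and 0.89. The highest was that of Cib3 with the cholesterol synthesis mean among hApoF livers (r = 0.89, exact permutation p = 0.011, adjusted 0.27; rho 0.83, p = 0.058), where hApoF 7 had the highest mean of the list (9.54). Without hApoF 7 alone r was 0.85, and omitting any 1 hApoF array gave 0.84 to 0.93. Without hApoF 7 and hApoF 11, r was 0.74 over 4 arrays, and in GFP livers it was 0.30 (exact permutation p = 0.53). Nipal1 and the cell cycle mean had r = 0.80 among GFP livers (exact permutation p = 0.064, adjusted 0.53; rho 0.49, p = 0.36), which turned to -0.90 without GFP 3 and GFP 4, so it rested on those arrays, and r = -0.51 among hApoF livers (exact permutation p = 0.31). Acpp had r = -0.57 with the macrophage and Kupffer mean among hApoF livers (exact permutation p = 0.24; rho -0.94, p = 0.017, adjusted 0.40).

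The genes that followed each member most closely were found separately in each virus group, as the 5 named genes with the highest Pearson r over its 6 arrays. A top 5 picked from 22179 genes has a high r by selection, and after adjustment over all genes the exact permutation test called 0 genes for any member in either group (smallest adjusted p = 0.56). With 6 arrays this outcome was close to fixed, since at least 1233 genes would have to reach the smallest possible p of 0.0028 for any to pass, and 32 to 99 did. At an unadjusted p under 0.05 there were between 703 genes (Cib3 in GFP livers) and 1807 genes (Nipal1 in GFP livers). By chance alone a share of up to 0.05 of the 22179 genes falls there. The counts for Cib3 (703 and 910 in GFP and hApoF livers) and Acpp (995 and 985) were below that share. Those for Nipal1 (1807 and 1384) were above it, and this excess was not tested. Points of 1 relation share the array and its normalization, so these values are a description. Their r in the other virus group comes from arrays that played no part in the choice.

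For Nipal1 in GFP livers these were the zinc finger gene Zbtb2 (r = 0.997), Sqstm1, the autophagy receptor p62 (0.995), the interferon-induced gene Rtp4 (0.994), Zc3hav1l (0.993) and the zinc finger gene Vezf1 (0.990). Among hApoF livers the same 5 genes had r of 0.37, -0.79, -0.36, 0.27 and 0.06 with Nipal1. Without GFP 3 and GFP 4, the highest and lowest GFP livers for Nipal1, r of these 5 ran from 0.49 (Vezf1) to 0.93 (Sqstm1). For Nipal1 in hApoF livers they were the phosphatase gene Ptpre (0.992), Defa41 (0.988), Gar1, a protein of small nucleolar RNPs (0.988), the scavenger receptor gene Colec12 (0.987) and Wdr90 (0.987). In GFP livers their r was 0.49, -0.78, 0.85, 0.25 and 0.11. The most opposite genes were Alx4 in GFP livers (-0.998, and -0.05 in hApoF livers) and Taar7a in hApoF livers (-0.993, and 0.47 in GFP livers).

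For Cib3 in GFP livers the closest were the receptor kinase gene Erbb2 (r = 0.994), the histone acetyltransferase gene Kat6b (0.992), the mucin gene Muc2 (0.984), Dstyk (0.981) and Ppargc1a, a coactivator of mitochondrial and fasting genes (0.981). In hApoF livers their r was 0.56, 0.16, 0.65, 0.35 and 0.37, while the 100 genes most like Cib3 in GFP livers had a median r of -0.02 there, and all genes -0.04. For Cib3 in hApoF livers they were Lmtk3 (0.990), Cnpy1 (0.984), Potegl (0.983), Slc22a14 (0.981) and Erp27, a protein of the endoplasmic reticulum (0.980). In GFP livers none of these exceeded 0.10, and Cnpy1 had -0.31. The most opposite genes were the peptidase gene Enpep in GFP livers (-0.998, and -0.14 in the other group) and Ube2q1 in hApoF livers (-0.992, and -0.14).

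For Acpp in GFP livers the closest were the noncoding RNA gene Meg3 (r = 0.984), Gpr50 (0.978), the antitrypsin gene Serpina1d, which has close paralogs (0.978), Gkn2 (0.975) and Gpr12 (0.975). In hApoF livers their r was -0.57, -0.76, 0.41, -0.61 and 0.51. For Acpp in hApoF livers they were the actin-severing gene Scin (0.988), Ssbp2 (0.982), Nyap2 (0.980), the galactosyltransferase gene B3galt1 (0.979) and the lectin receptor gene Cd302 (0.979). In GFP livers their r was 0.53, 0.11, 0.87, 0.44 and 0.64. Without hApoF 7 and hApoF 10, the arrays farthest from the median of Acpp, r of these 5 in hApoF livers ran from 0.64 to 0.95. The most opposite genes were Cox4i1, a cytochrome c oxidase subunit, in GFP livers (-0.994, and -0.26 in the other group) and the lysosomal protease gene Ctss in hApoF livers (-0.992, and 0.13).

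Across all 30 genes so named, no gene appeared under more than 1 member or group. Their r in the other group had a median of 0.21 and ran from -0.79 to 0.87; 22 were positive and 8 negative. The 100 most like genes, taken without the filter on names, gave medians in the other group of -0.27 (Nipal1, chosen in GFP livers), -0.12 (Nipal1, hApoF), -0.02 (Cib3, GFP), -0.01 (Cib3, hApoF), 0.10 (Acpp, GFP) and 0.15 (Acpp, hApoF), against -0.06 to 0.00 over all genes. The positive majority of the 30 was therefore not seen in the longer lists of Nipal1 and Cib3. Values above 0.8 were found for Gar1 with Nipal1 (mean log2 level 6.36) and Nyap2 with Acpp (3.23). Nyap2 lay below the array medians of 4.93 to 5.03, where signal is dim. So did Defa41 (3.47), Scin (4.02), the opposite gene Taar7a (1.64) and others. All 5 genes most like Cib3 in hApoF livers were dim too, from 3.37 (Potegl) to 4.78 (Erp27). Others were bright, such as Sqstm1 (10.43). None of the 30 passed the limma test between the virus groups (0 of 30, and 5 at an unadjusted p under 0.05, against 6.91% of all genes called), and 17 of them spanned less than 0.5 log2 units over the 6 arrays in which they followed the member. Taking the 100 genes most like each member in each group, the lists of the groups shared 2 genes for Nipal1 and 0 each for Cib3 and Acpp. The shared genes were Grk4 (r = 0.97 and 0.96) and Paqr4 (0.97 and 0.93), named after their values were seen. Their mean log2 levels were 3.59 and 5.57, so Grk4 was dim. Without GFP 3, GFP 4 or hApoF 8 the Nipal1 lists shared 0 genes, and without GFP 1, 2 or 6 or hApoF 9 or 12 they shared 1.

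**Figure D4:**
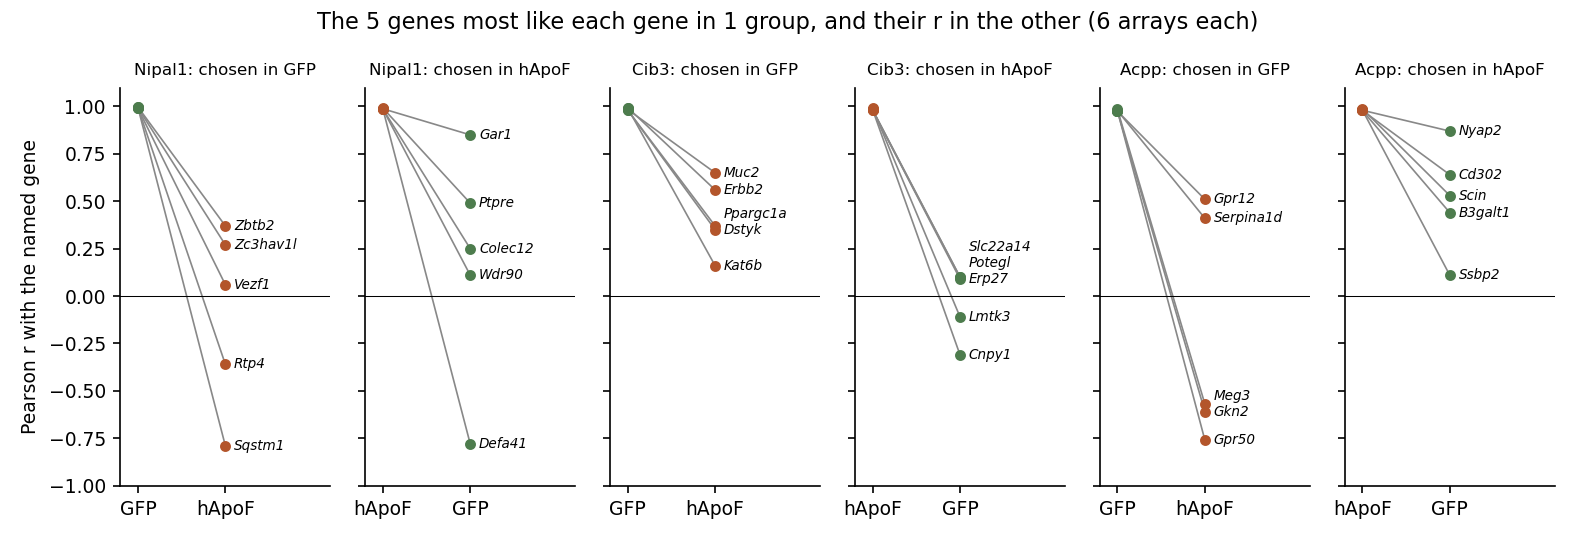
Pearson r (vertical axis, over 6 arrays) of the 5 genes most like each member in the group where they were chosen (left point of each panel) and in the other virus group (right point), green for GFP and brown for hApoF. Left points all lie at 0.975 or above, and right points spread from -0.79 to 0.87.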

How the data were processed

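Liver RNA of 12 samples was measured on a mouse whole-transcript array. The authors deposited log2 values per probe set; per the submitters' processing notes they used oligo and RMA (background correction, quantile normalization and median polish). The sources used here give neither versions nor a build. All 35145 probe sets and 12 arrays were used as deposited, with array medians of 4.93 to 5.03; the number of arrays limits the precision. Of the probe sets, 23521 had 1 gene symbol, 1814 several and 9810 none listed in the platform annotation, which can be old. By gene identifier 23328 of the single-symbol probe sets matched the RefSeq gene table, and 0 of these had a different symbol there. Newer names such as Acp3 do not show in that comparison. Each of 22180 genes was represented by its brightest probe set.

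hApoF was compared with GFP in limma 3.58.1 (R 4.3.3, lmFit and eBayes, no covariates), with Benjamini-Hochberg adjustment over all genes and a threshold of 0.05. The contrast is printed without p for the 3 members. Correlations used exact two-sided permutation over 720 pairings (smallest p 0.0028) in Python 3.11.15 with NumPy 2.4.6; plots used matplotlib 3.10.9. Both steps were tested on simulated data. Genes named by rule were the members, the called genes of each related list (at most 4, lowest p first), and genes picked by r. The last were, for each member and group, the 5 of highest and 1 of lowest r. They leave out predicted, olfactory, vomeronasal, T cell receptor, immunoglobulin and small RNA symbols. Further genes of the lists, the chromosome neighbours, and Grk4 and Paqr4 were named outside this rule. The members and lists were chosen with earlier results of these data known. Genes of the lists that are not under a single symbol were not analysed here. Promoter windows are from RefSeq (GRCm38.p6), matched by symbol for all 3 members. Alternatives tried were array centring, renewed quantile normalization, a filter on dim genes, trend and robust moderation, probe set means, rank correlation, and omission of arrays.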

Additional observations from a re-analysis of the deposited data

Results flagged for a closer look

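In 52 sets of 6 arrays (members, named relatives, neighbours and list means in each virus group), 3 held an array far from the others by Dixon's criterion, which chance meets in about 1 of 20 sets. Pxylp1 was at 5.89 in hApoF 9, against 6.08 to 6.19 in the remaining hApoF livers. The mean of the CIB and TMC list was 5.38 in GFP 4, against 5.16 to 5.23 in the remaining GFP livers. The mean of the stellate list was 6.99 in GFP 2, against 7.22 to 7.34. For Cib3 and Acpp, hApoF 7 stayed within the criterion, with a gap of 0.53 of the range for each.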

How the results depend on the processing

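The higher levels of the members kept their direction in every alternative run. The members were chosen for this difference, so the runs show only how far its size moved. Leaving out 1 array gave differences of 1.25 to 1.63 for Nipal1, 0.81 to 1.22 for Cib3 and 0.89 to 1.13 for Acpp, and without GFP 4 and hApoF 12 together they were 1.07, 0.98 and 1.13. Calls of Magt1, Mrs2, Slc41a3 and Tmie held in all alternatives; Pxylp1 was lost on renewed quantile normalization (limma adjusted p = 0.055). The number of called genes of all was 1015 to 1988 over the omissions (1019 without GFP 2, 1015 without GFP 3, 1021 without GFP 6). In the magnesium list it was 3 to 4. In the CIB and TMC list it was 1 to 2, with 2 among brighter genes and 2 without GFP 4 and hApoF 12. In the phosphatase list it was 0 to 3, with 3 after centring, 0 after quantile normalization, 4 among brighter genes and 4 with trend and robust settings. The causes were not tested.

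Correlations between members gave 0 calls of 6 in the alternatives, which says nothing of stability for the omissions: with 5 arrays the smallest p is 0.017, so a lone relation cannot go below 0.10 after adjustment. Omitting 1 array gave r from 0.18 to 0.63 (Nipal1 and Cib3), -0.66 to 0.15 (Nipal1 and Acpp) and 0.13 to 0.87 (Cib3 and Acpp) in GFP livers, and from 0.29 to 0.74, -0.46 to 0.50 and -0.59 to 0.86 in hApoF livers. Signs turned without the 2 farthest arrays for Nipal1 and Acpp (0.16 in GFP, 0.39 in hApoF), Cib3 and Acpp (-0.10 and -0.99) and Nipal1 and the cell cycle mean in GFP (-0.90), and for Nipal1 and Acpp in hApoF after quantile normalization (0.02). With 4 arrays the smallest possible p is 0.083. The 24 relations with list means also gave 0 calls, an outcome near to fixed: a lone relation cannot pass with 6 arrays (0.067 at best), at least 9 at the smallest p would be needed with 5, and none can pass with 4.

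Genes shared by the lists of 100 numbered 0 to 2 for Nipal1, 0 to 1 for Cib3 and 0 to 1 for Acpp over the omissions. By rank correlation they numbered 0, 1 and 1, and after centring 1 for Nipal1; among brighter genes 5 were shared for Acpp. No paired analysis was possible because the groups share no replicate numbers.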
